A study of Rattus with 4 samples.

Results

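The reads of 10 genes that make and use microRNAs were compared between RNA precipitated with an antibody to NONO and input RNA of cultured rat heart cells. The genes were chosen by name, and all 10 were found among the 13731 genes listed. They are the Argonaute genes Ago1, Ago2 and Ago3, the GW182 genes Tnrc6a, Tnrc6b and Tnrc6c, the Microprocessor genes Drosha and Dgcr8, the export receptor gene Xpo5, and Dicer1. In RNA immunoprecipitation sequencing, RNA held by a protein is recovered with an antibody to that protein and sequenced beside the input material. NONO is a nuclear RNA- and DNA-binding protein of paraspeckles.

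The 4 libraries formed 2 groups. The NONO IP libraries (n = 2) carry the antibody label anti-NONO and are also labelled as transfected with siRNA to NONO. The Input libraries (n = 2) carry no antibody and are labelled as transfected with an empty vector. Cells were harvested 48 h after transfection where the protocol states a time, which it gives for RT-qPCR and western blotting. The titles name H9C2, a line from embryonic rat heart, while the growth protocol names a cardiac fibroblast line. Precipitation and knockdown cannot be told apart by these labels, there was no control antibody library among the 4, and nothing says that replicates came from separate cultures, so p-values measure only the spread between these libraries.

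MicroRNAs are cut from long primary transcripts. In the nucleus the RNase III enzyme Drosha and its RNA-binding partner Dgcr8, together the Microprocessor, release a hairpin. Exportin 5, the product of Xpo5, carries the hairpin to the cytoplasm, where Dicer1 trims it to a duplex. An Argonaute protein takes up one strand and pairs with target mRNAs. GW182 proteins, encoded by the Tnrc6 genes, bind Argonaute and bring in the PAN2-PAN3 and CCR4-NOT complexes, which remove the poly(A) tail. In mammals Ago2 is the Argonaute best known for cutting its targets. The pathway is present in nearly all cell types of the heart, fibroblasts included.

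Gene counts summed to between 264059 and 279410 in the NONO IP libraries and to between 238776 and 249548 in the Input libraries. Reads of Nono itself numbered 3 and 3 in the NONO IP libraries and 21 and 9 in the Input libraries. Of 10 fibroblast markers, 9 had reads, at a sum of 19339 to 20372 in NONO IP and 18630 to 19445 in Input, with Lum at 0. The 12 cardiomyocyte markers summed to 76 to 81 reads in NONO IP and 47 to 68 in Input, with Tnni3, Myl2 and Myl7 at 0. Of the 7 skeletal myoblast markers 1 had reads, and Myod1, Myog and Myf5 were at 0. The 6 smooth muscle and pericyte markers summed to 382 to 394 reads in NONO IP and 560 to 585 in Input, with Rgs5 at 0. Endothelial markers summed to 0 to 3 reads in NONO IP and 1 in each Input library, with Pecam1, Cdh5, Kdr and Tie1 at 0. Macrophage and leukocyte markers summed to 1 to 2 reads in NONO IP and 1 to 5 in Input, with Ptprc at 0. With TMM scaling, described below, 14 of the markers could be tested, and 11 were called lower and 1 higher in NONO IP. The lower ones were 5 of 7 tested fibroblast, 2 of 3 cardiomyocyte and 4 of 4 smooth muscle markers. Both lower cardiomyocyte markers, Myh6 and Myh7, passed the count filter through Input alone. The 1 higher marker, of fibroblasts, passed it through NONO IP alone. Calls of genes that pass in this way support no count in that direction. Over all 2920 genes tested by edgeR, 26.9% were lower and 29.8% higher. Whether these differences bear on the genes below was not tested. In bulk libraries, fewer cells with a transcript and less of it per cell cannot be told apart.

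The 10 genes were thinly sequenced. Together they held 173 and 156 reads in the NONO IP libraries and 108 and 91 in the Input libraries, which is 0.0619% and 0.0591% of all gene counts in NONO IP and 0.0433% and 0.0381% in Input. These totals include ribosomal RNA genes, at 31.9% and 32.2% of counts in NONO IP and 42.3% and 41.1% in Input. How far that moves the shares was not tested. After TMM scaling, which sets libraries to a common level through the bulk of their genes, the sums of the 10 members were 534 and 508 CPM (counts per fixed size of scaled library) in NONO IP and 507 and 439 in Input. The ratio of the summed reads, NONO IP over Input, was 1.10 per scaled library, with an exact conditional 95% interval of 0.920 to 1.32. Intervals of this kind cover counting error only. A count of 3 reads, the most that a count of 0 allows, corresponds to 9.26 and 9.77 CPM in the NONO IP libraries and to 14.1 and 14.5 CPM in the Input libraries.

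Ago2 was the single member called between the groups, and it was higher in the NONO IP. Tnrc6a and Tnrc6b lay lower in both NONO IP libraries and Tnrc6c and Dicer1 higher, without passing the test. Groups apart in this way on the TMM scale were common, at 40.6% higher and 37.3% lower of the 2920 genes tested. Of the 10 members 5 had enough reads for edgeR's quasi-likelihood test, namely Ago2, the 3 GW182 genes and Dicer1. Of these 5, 1 was called higher and none lower at an adjusted p under 0.05. Over all 2920 genes tested, 29.8% were called higher, 26.9% lower and 56.7% in either direction. With 5 members tested, 1 call is too few to be read against these shares, which were not matched for depth. The split between higher and lower calls depended on the scaling, at 1193 and 466 genes with library totals and 393 and 1425 on the log2(RPKM + 1) scale. At an unadjusted p under 0.05 the edgeR test gave 1 member higher, Ago2, and 1 lower, Tnrc6a. Limma-voom gave the same counts as edgeR, adjusted and unadjusted, and the DESeq2 Wald test gave 0 members in either direction, adjusted or unadjusted. The other 5 members held between 10 and 36 reads over all libraries and were below the count filter.

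**Figure D1:**
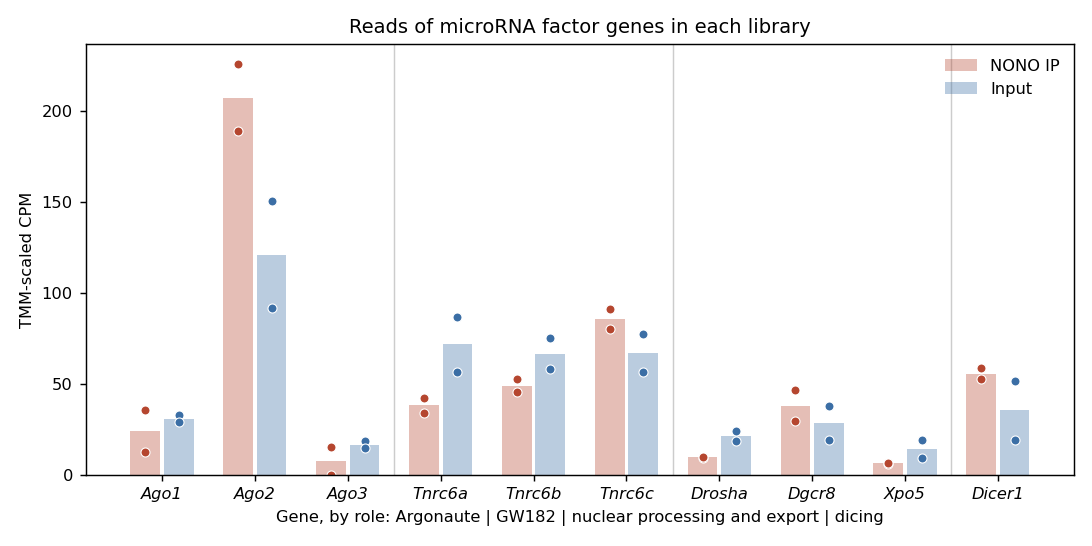
TMM-scaled CPM (vertical axis, linear) of the 10 genes, with NONO IP in red and Input in blue; points are libraries and bars their means (n = 2 each). Ago2 is at 225 and 189 CPM in NONO IP and 150 and 91.6 CPM in Input, and every other member is below 100 CPM; in Input replicate 2, Tnrc6a at 86.8 CPM is close to Ago2.

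Among the Argonaute genes, Ago2, on chromosome 7, had 73 and 58 reads in the NONO IP libraries, against 32 and 19 in the Input libraries. Scaled, these were 225 and 189 CPM in NONO IP and 150 and 91.6 CPM in Input, with means of 207 ± 25.8 and 121 ± 41.4 (SD, n = 2 each). Both NONO IP libraries lay above both Input libraries. The log2 fold change of 0.77 (SE 0.26), a 1.71-fold higher level, passed with an adjusted p of 0.0163 by edgeR. The call ended without Input replicate 2 (log2 fold change 0.40, edgeR adjusted p = 0.314) and without NONO IP replicate 1 (0.70, adjusted p = 0.0573). Over 16 other ways of processing, the adjusted p ran from 0.000571 to 0.794 and the call was kept in 9.

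Ago1, which lacks the strong slicing activity of Ago2 in mammals, had 4 and 11 reads in NONO IP and 7 and 6 in Input. The groups overlapped, and the library with the most and the one with the fewest reads were both NONO IP libraries. The ratio of NONO IP to Input was 0.768, with an interval of 0.341 to 1.75. Ago3, a further Argonaute, had 5 and 0 reads in NONO IP and 4 and 3 in Input. Its ratio was 0.476, with an interval of 0.119 to 1.74, so that neither a fall nor a rise of moderate size was detectable at this depth. The edgeR fit without a count filter put Ago1 at a log2 fold change of −0.16 (SE 0.57, adjusted p = 0.889) and Ago3 at −0.82 (SE 0.84, adjusted p = 0.674). In that fit 1 of the 10 members was called higher, again Ago2, and none lower at an adjusted or unadjusted p under 0.05, against 8.59% and 4.73% of all 13731 genes. The direction of Ago1 turned without NONO IP replicate 1 (0.35) and that of Ago3 without NONO IP replicate 2 (0.12). Ago3, Ago1 and Ago4 are neighbours on chromosome 5 in the RefSeq annotation of the GRCr8 assembly. Ago4 had 0 and 3 reads in NONO IP and none in Input.

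Within the Argonaute family the share of reads on Ago2 needs no scaling between libraries, though it is not corrected for gene length. It was 89.0% and 84.1% in the NONO IP libraries (exact Clopper-Pearson 95% intervals 80.2 to 94.9 and 73.3 to 91.8). In the Input libraries it was 74.4% and 67.9% (58.8 to 86.5 and 47.6 to 84.1). The 2 groups did not overlap, but the intervals of single libraries did.

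The GW182 genes differed among themselves in which group was higher. Tnrc6a, on chromosome 1, had 11 and 13 reads in NONO IP and 12 and 18 in Input, or 33.9 and 42.3 CPM against 56.3 and 86.8 CPM. Both NONO IP libraries were below both Input libraries on the CPM scale. The log2 fold change of −0.90 (SE 0.40) did not pass the test, at an edgeR adjusted p of 0.0617. It passed without Input replicate 1 (−1.25, adjusted p = 0.0221), and over 15 other ways of processing the adjusted p ran from 0.00825 to 0.37.

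Tnrc6b, on chromosome 7, had 17 and 14 reads in NONO IP and 16 and 12 in Input, or 52.5 and 45.6 CPM against 75.1 and 57.9 CPM. The NONO IP libraries were again both below, with a log2 fold change of −0.44 (SE 0.37, edgeR adjusted p = 0.333). Tnrc6c, on chromosome 10, had 26 and 28 reads in NONO IP and 12 and 16 in Input, or 80.2 and 91.2 CPM against 56.3 and 77.2 CPM. Here both NONO IP libraries were above both Input libraries, with a log2 fold change of 0.36 (SE 0.33, edgeR adjusted p = 0.368). The summed reads of the 3 genes gave a ratio of 0.844, with an interval of 0.630 to 1.13.

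Counted within a library, Tnrc6c had 2.36 and 2.15 reads for each Tnrc6a read in NONO IP, and 1.00 and 0.889 in Input. Ago2 had 6.64 and 4.46 reads for each Tnrc6a read in NONO IP, and 2.67 and 1.06 in Input. Against the other 9 members together, Ago2 had 0.730 and 0.592 reads per read in NONO IP, and 0.421 and 0.264 in Input. Each of these 3 ratios was higher in both NONO IP libraries than in both Input libraries, and none depends on how the libraries were scaled. They are not corrected for gene length, which moved with the result (below). Relative to the median gene tested, the length was 2.83 for Ago2 and 4.28 for Tnrc6c, against 1.88 for Tnrc6a. The ratios were picked after the values were seen and were not tested.

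**Figure D2:**
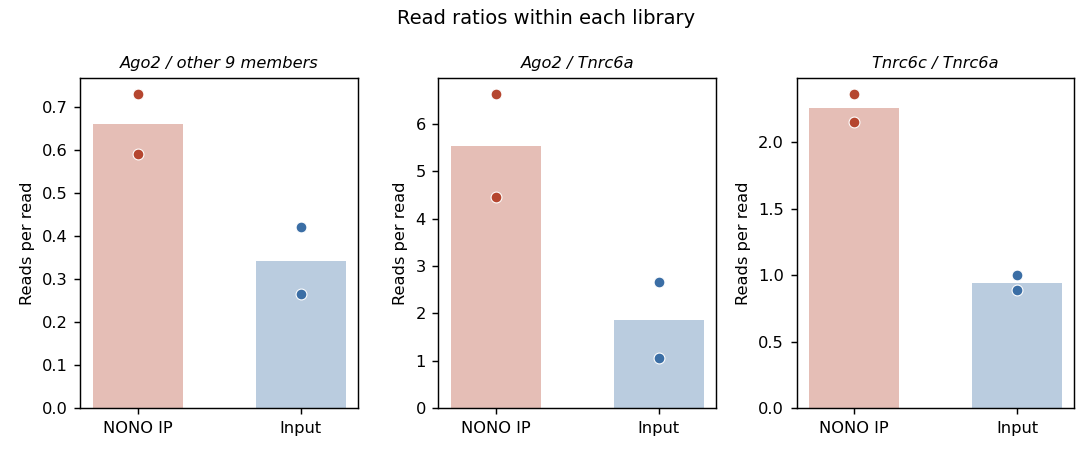
Reads of one gene per read of another within the same library (vertical axes, linear), with NONO IP in red and Input in blue; points are libraries and bars their means (n = 2 each). In all 3 panels both NONO IP points lie above both Input points, as in the Tnrc6c to Tnrc6a ratio of 2.36 and 2.15 against 1.00 and 0.889.

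Of the genes for the cutting and export steps, Dicer1 on chromosome 6 had 17 and 18 reads in NONO IP and 11 and 4 in Input. Scaled, these were 52.5 and 58.6 CPM in NONO IP and 51.6 and 19.3 CPM in Input. The NONO IP libraries lay above both Input libraries, but by less than 1 CPM above Input replicate 1. Its log2 fold change of 0.63 (SE 0.45) had an adjusted p of 0.244 by edgeR. It was 1.44 without Input replicate 1 (adjusted p = 0.0732) and 0.04 without Input replicate 2 (adjusted p = 0.962). Dicer1 passed the count filter through its NONO IP libraries, since 1 Input library alone reached the filter's 38.9 CPM.

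Dgcr8, on chromosome 11, had 15 and 9 reads in NONO IP and 8 and 4 in Input, with a ratio of 1.33 and an interval of 0.641 to 2.92. Drosha, on chromosome 2, had 3 and 3 reads in NONO IP and 4 and 5 in Input. The 2 partners of the Microprocessor thus had point estimates on opposite sides of 1, with a Drosha ratio of 0.444 (interval 0.130 to 1.40) that overlapped the interval of Dgcr8. Xpo5, on chromosome 9, had 2 and 2 reads in NONO IP and 2 and 4 in Input, with a ratio of 0.444 and an interval of 0.0921 to 1.87. None of the 3 was tested with the count filter. In the fit without it their log2 fold changes were 0.62 (SE 0.53), −0.92 (SE 0.72) and −0.91 (SE 0.87), at edgeR adjusted p-values of 0.608, 0.558 and 0.658. Summed with Dicer1, they gave a ratio of 1.09 (0.735 to 1.65).

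On the TMM scale 3 of the 10 members were higher in both NONO IP libraries than in both Input libraries, 4 were lower and 3 overlapped. Over all listed genes 22.5% were higher in this sense and 22.7% lower. Over the 2920 genes tested, which have more reads, the shares were 40.6% higher and 37.3% lower. The 3 higher members (Ago2, Tnrc6c and Dicer1) and, of the lower ones, Tnrc6a and Tnrc6b were tested genes. The median log2 fold change of all 10 members in the fit without a count filter was −0.19, with 4 members above 0 and 6 below. It was 0.30 for all 13731 genes, a median that takes in many genes with very few reads. With the count filter the median was 0.36 for the 5 tested members and 0.02 for all 2920 genes tested. The interval of the read ratio held 1 for 8 of the 10, the exceptions being Ago2 (1.23 to 2.41) and Tnrc6a (0.298 to 0.943).

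Gene length moved with the result. Dividing counts by RPKM gives each gene's length relative to the median gene tested, and 9 of the 10 members were longer than that median. Their relative lengths ran from 0.95 for Drosha to 4.65 for Tnrc6b, with 2.83 for Ago2 and 4.28 for Tnrc6c. When the tested genes were split by length into 4 groups of 730, the median log2 fold change was −0.58 in the shortest group, −0.12 and 0.14 in the middle ones, and 0.68 in the longest. All 5 tested members were in the longest group. The 0.77 of Ago2 was therefore close to the median of this longest group, whose relative lengths ran from 1.58 to 15.0. The other 4 tested members were below that median, at 0.63 for Dicer1, 0.36 for Tnrc6c, −0.44 for Tnrc6b and −0.90 for Tnrc6a. With an offset for length, Ago2 was at 0.10 (SE 0.26, edgeR adjusted p = 0.771) and was not called. Tnrc6a was then called lower, at −1.31 (SE 0.39, edgeR adjusted p = 0.0140), as was Tnrc6b, at −1.47 (SE 0.37, adjusted p = 0.00536). Tnrc6c changed sign to −0.61 (SE 0.33, edgeR adjusted p = 0.149), and Dicer1 was not called.

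**Figure D3:**
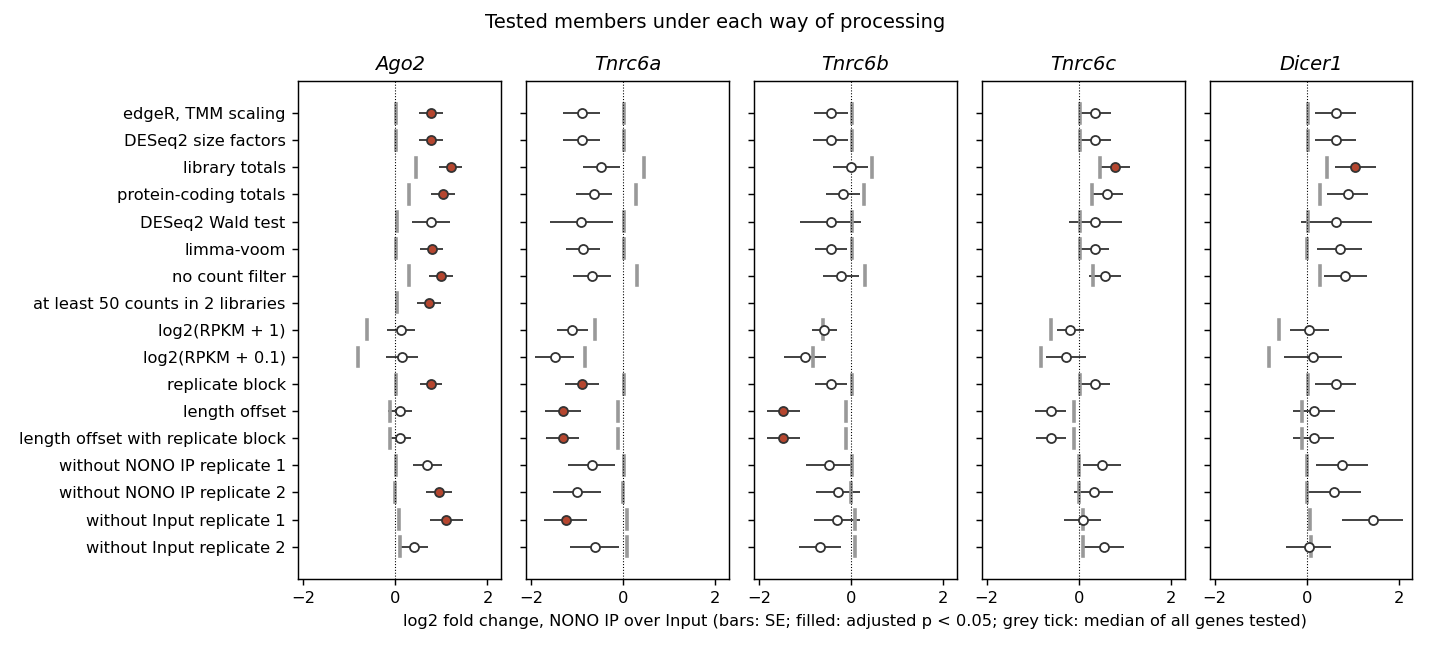
Log2 fold change of NONO IP over Input (horizontal axis, one panel per tested member) under each way of processing (rows); bars are the SE, filled points have an adjusted p under 0.05, and grey ticks mark the median of all genes tested. Ago2 lies right of 0 in every row, between 0.10 and 1.20, while Tnrc6c lies on both sides of 0.

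The level of each transcript per gene length, as RPKM (reads scaled to gene length and library total), was taken from the authors' deposited values. In the NONO IP libraries Ago2 was highest, at a mean of 5.33 ± 0.495 RPKM (SD, n = 2), followed by Dicer1 at 1.92, Dgcr8 at 1.61, Tnrc6a at 1.49, Tnrc6c at 1.47, Ago1 at 1.16, Tnrc6b at 0.770, Drosha at 0.735, Xpo5 at 0.455 and Ago3 at 0.155. In the Input libraries the order was Ago2 at 4.93 ± 1.65 RPKM, Tnrc6a at 4.41, Drosha at 2.61, Ago1 at 2.32, Dgcr8 and Dicer1 at 1.93 each, Tnrc6c at 1.81, Tnrc6b at 1.65, Xpo5 at 1.63 and Ago3 at 0.545. Ago2 was thus the member with the most RNA per length in both groups, and Ago3 the one with the least. Of the 9 neighbouring pairs in each order, 6 in NONO IP and 7 in Input had ranges that overlapped. The gaps in NONO IP were those below Ago2, below Drosha and below Xpo5. In Input they were below Tnrc6a and below Xpo5, so that Ago2 and Tnrc6a were not apart there. The median of the members was 1.31 RPKM in NONO IP and 1.93 in Input, against 0.815 and 1.29 for all listed genes.

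On this scale 9 of the 10 members had a lower mean in NONO IP than in Input, the exception being Ago2. Ago2 had 5.68 and 4.98 RPKM in NONO IP and 6.10 and 3.76 in Input, and its groups overlapped. Tnrc6a had 1.29 and 1.68 RPKM in NONO IP and 3.45 and 5.37 in Input. Both NONO IP libraries were below both Input libraries for 6 members (Ago1, Ago3, Tnrc6a, Tnrc6b, Drosha and Xpo5) and above them for none, against 34.3% below and 14.9% above over all listed genes. The total behind the RPKM values was 2.38 times as large in NONO IP as in Input, and the median gene in limma on log2(RPKM + 1) was at −0.61. Limma called 0 of the 9 members tested, against 5.19% higher, 18.8% lower and 24.0% in either direction of 7576 genes. At an unadjusted p under 0.05 it gave 0 higher and 2 lower, Tnrc6a (difference of log2(RPKM + 1) −1.10, SE 0.33, limma adjusted p = 0.0832) and Drosha (−1.05, SE 0.28, adjusted p = 0.0656). Ago2 differed by 0.12 (SE 0.31, adjusted p = 0.794), which is 0.73 above the median gene, close to the 0.75 by which it exceeded that median with TMM scaling. The median of the 9 members was −0.58.

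**Figure D4:**
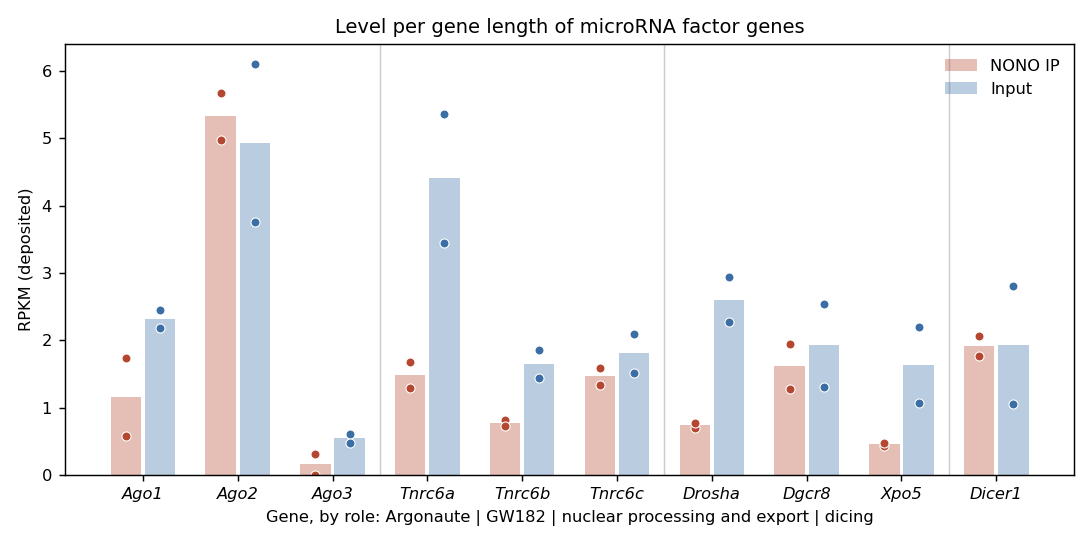
Deposited RPKM (vertical axis, linear) of the 10 genes, with NONO IP in red and Input in blue; points are libraries and bars their means (n = 2 each). Ago2 is at a similar height in both groups, at means of 5.33 and 4.93, while Tnrc6a has 1.29 and 1.68 in NONO IP against 3.45 and 5.37 in Input.

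The pattern of the summed member reads over the 4 libraries was compared with that of each gene averaging at least 50 counts, by the Euclidean distance of centred log2 CPM. The nearest genes were Scarf2 (distance 0.0551), Tpm4 (0.127) and Txnrd1 (0.129). Scarf2, which encodes a scavenger receptor, had 105 and 96 reads in NONO IP and 69 and 56 in Input. Over 4 libraries such a likeness describes these samples only.

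Other genes of the pathway were read from a list of 96, of which 90 were listed in the data and 37 had enough reads to be tested. Of the 37, 8 were called higher and 6 lower in the NONO IP, 37.8% in all against the 56.7% of all genes, with a median log2 fold change of 0.18 against 0.02. Among them, 19 genes listed for the deadenylase complexes that GW182 proteins bring to a target, and for partners of these, held 4 of the 8 higher calls. For 7 of the 8, all but Nufip2, the reads of the NONO IP libraries alone carried the gene over the count filter. A gene that passes in this way has to differ, so these 7 calls describe the genes and support no count of higher genes. Of the 6 lower genes, Hspa8 and Adar passed through Input in the same way, and their calls support no count of lower genes. The calls of Nufip2, Cnot6l, Pan3, Wtip, Hspa8 and Hsp90ab1 held in every alternative that tested them, and those of the others named below ended in at least 1.

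Of the 19 genes listed for the deadenylase complexes and their partners 7 were tested, with 4 higher and 1 lower. All 4 higher genes passed the filter through NONO IP alone. On the TMM scale 7 of the 19 were higher in both NONO IP libraries than in both Input libraries and 7 were lower, against 22.5% and 22.7% of all listed genes. On the RPKM scale 5 were higher and 12 lower, against 14.9% and 34.3%. Cnot6l, a catalytic subunit of CCR4-NOT, had 64 and 66 reads in NONO IP and 5 and 3 in Input (log2 fold change 3.40, SE 0.37, edgeR adjusted p = 5.98e-07). Pan3, the partner through which PAN2-PAN3 binds GW182, had 56 and 52 in NONO IP and 5 and 5 in Input (2.82, SE 0.36, adjusted p = 3.92e-06). Cnot2, a scaffold subunit, had 36 and 27 in NONO IP and 4 and 1 in Input (3.02, SE 0.52, adjusted p = 9.98e-05), a call that ended on the log2(RPKM + 1) scale (1.75, limma adjusted p = 0.0529). For these 3 genes every NONO IP library was more than 5 times above every Input library in reads. Cnot6, the paralog of Cnot6l, had 20 and 11 reads in NONO IP and 4 and 2 in Input (1.75, SE 0.55, adjusted p = 0.0118). That call ended without NONO IP replicate 1 (1.36, adjusted p = 0.300) and without Input replicate 2 (1.30, adjusted p = 0.127). Pabpc1, the poly(A)-binding protein, had 43 and 38 reads in NONO IP and 47 and 40 in Input and was lower (−0.69, SE 0.23, adjusted p = 0.0169). It was not called without NONO IP replicate 1 (−0.68, 0.0542), NONO IP replicate 2 (−0.58, 0.0806) or Input replicate 1 (−0.65, 0.0872), nor with the length offset (−0.36, 0.192).

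Among genes of Argonaute loading and small RNA handling, 9 of 18 were tested, with 1 higher and 3 lower. Hspa8 and Hsp90ab1, which encode cytoplasmic chaperones that open Argonaute for loading, were lower. Hspa8 had 3 and 1 reads in NONO IP and 37 and 37 in Input (log2 fold change −4.70, SE 0.45, edgeR adjusted p = 1.55e-07), and Hsp90ab1 had 46 and 48 in NONO IP and 71 and 68 in Input (−1.15, SE 0.19, adjusted p = 7.61e-05). Hspa8 passed the filter through Input alone. Of the other listed chaperone and co-chaperone genes, Ptges3 (0.03, adjusted p = 0.949) and Hspa4 (adjusted p = 0.0748) were not called and Hsp90aa1 and Dnajb1 were not tested with the count filter. In the edgeR fit without it Hsp90aa1, with 2 and 0 reads in NONO IP and 18 and 9 in Input, was called lower (−3.95, SE 0.75, adjusted p = 8.06e-05). Dnajb1 was not called there (−0.36, SE 0.74, adjusted p = 0.783). All 4 were picked with their values in view. Zswim8, part of the ubiquitin ligase that degrades Argonaute on certain targets, had 19 and 34 in NONO IP and 41 and 33 in Input (−1.06, SE 0.30, adjusted p = 0.00572), a call that ended without NONO IP replicate 1 (−0.61, adjusted p = 0.122). Wtip, a LIM protein of P-bodies, was higher, having passed the filter through NONO IP alone, with 51 and 47 reads in NONO IP and 8 and 7 in Input (2.11, SE 0.33, adjusted p = 4.29e-05). Hspa8 has processed pseudogenes that can share its reads, and how such reads were counted is not given.

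Of 20 cofactors of the Microprocessor and other nuclear steps 11 were tested, with 1 higher and 2 lower. Xpo1, an export receptor that passed the filter through NONO IP alone, had 25 and 29 reads in NONO IP and 7 and 8 in Input (log2 fold change 1.25, SE 0.39, edgeR adjusted p = 0.0113), or 1.07 and 0.0732 without Input replicate 1. The RNA-editing enzyme gene Adar had 9 and 16 reads in NONO IP and 18 and 20 in Input (−1.18, SE 0.38, adjusted p = 0.0147), or −0.73 and 0.189 without NONO IP replicate 1. For Adar both Input libraries but only 1 NONO IP library reached the level of the count filter. Adarb1, the other editing enzyme, had 158 and 143 reads in NONO IP and 134 and 117 in Input. It was lower (−0.32, SE 0.13, adjusted p = 0.0440). That call ended whichever library was left out (−0.46 to −0.24, adjusted p 0.0575 to 0.230), and with library totals the change turned to 0.11. The Microprocessor helicase genes Ddx5 and Ddx17 did not pass, at −0.58 (SE 0.26, adjusted p = 0.0659) and −0.99 (SE 0.43, adjusted p = 0.0570); both were named after their values were seen.

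None of the 7 listed genes of let-7 and precursor tailing was tested. Of 15 genes of decapping and P-bodies 4 were tested. None of the 4 was called or had an unadjusted p under 0.05 with edgeR, DESeq2 or limma-voom; the RPKM + 1 scale tested 12 and called 1 lower, Edc4, a decapping scaffold. The P-body helicase gene Ddx6 was at a log2 fold change of 0.04 (SE 0.39). Edc4 and Ddx6 were named after their values were seen. Of 6 tested genes of other RNA-binding proteins 2 were higher. Nufip2, a partner of FMRP, had 168 and 134 reads in NONO IP and 12 and 10 in Input (log2 fold change 3.18, SE 0.24, edgeR adjusted p = 6.18e-09). Igf2bp2, an mRNA-binding protein of the IMP family that passed the filter through NONO IP alone, had 30 and 23 in NONO IP and 9 and 7 in Input (1.13, SE 0.39, adjusted p = 0.0188). The Igf2bp2 call ended without NONO IP replicate 1 (1.03, 0.0935) and without Input replicate 2 (0.92, 0.115).

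**Figure D5:**
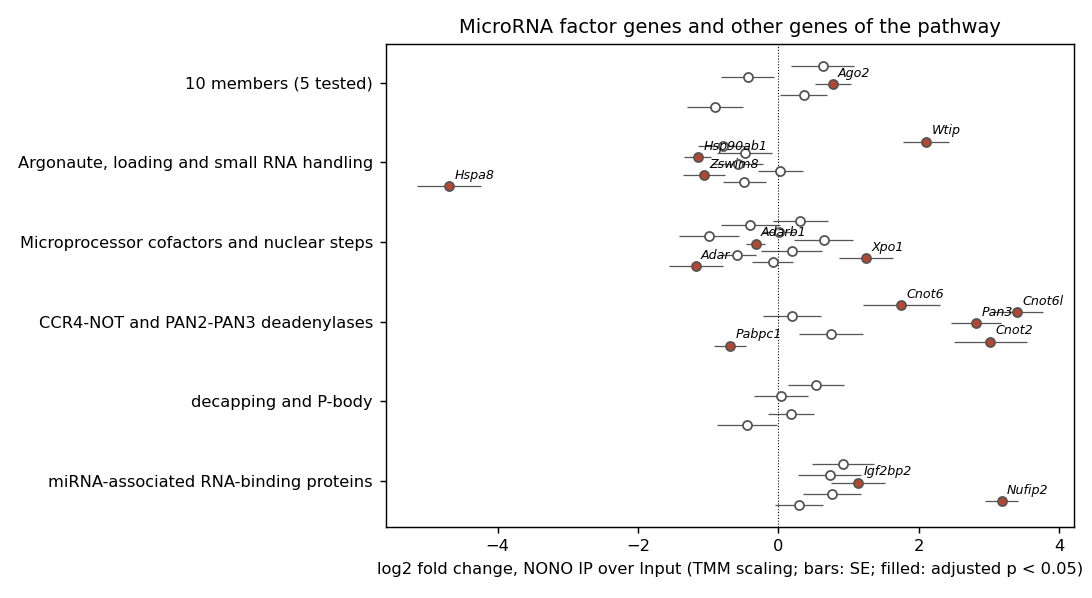
Log2 fold change of NONO IP over Input with TMM scaling (horizontal axis) for the 5 tested members (top) and 37 tested pathway genes by role (below); bars are the SE, and filled, named points have an adjusted p under 0.05. Ago2, at 0.77, is the filled point among the members, and Cnot6l, Pan3 and Cnot2 lie at 2.82 to 3.40.

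The pathway's own substrates appeared as 41 rows of microRNA genes, which were looked at after the values were seen. Libraries of poly(A)-selected fragments are not made to measure mature microRNAs, and which RNA gave these reads was not tested. Summed, the rows held 145 and 117 reads in the NONO IP libraries and 15 and 7 in the Input libraries. Without Mir193, Mir193a and Mir1843b the sums were 51 and 45 in NONO IP and 14 and 7 in Input. Both NONO IP libraries were above both Input libraries for 13 rows and below for 1, against 22.5% and 22.7% of all listed genes; 31 rows had fewer than 5 reads in all. In the fit without a count filter 5 of the 41 were called higher (Mir193, Mir193a, Mir1843b, Mir1949 and Mir23a) and none lower, against 8.59% and 4.73% of all genes.

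Mir193, on chromosome 10, had 52 and 49 reads in NONO IP and 1 and 0 in Input, a ratio of 67.3 with an exact conditional interval of 11.8 to 2683. It was tested with the count filter through its NONO IP reads and was called higher (edgeR adjusted p = 3.77e-07), but not on the log2(RPKM + 1) scale (limma adjusted p = 0.0587). Mir193a, which RefSeq places over the same stretch, had 10 and 10 reads in NONO IP and none in Input, and Mir365b, on the same chromosome, had 9 and 5 in NONO IP and 1 and 1 in Input. Mir1843b, on chromosome 13, had 32 and 13 reads in NONO IP and none in Input, and passed the filter through NONO IP alone. With Input set at 3 reads over the group it was at least 9.99-fold higher, and with the counting error of the NONO IP reads included the exact conditional interval of the ratio began at 7.80. Cop1, the gene within which RefSeq places Mir1843b, had 1 and 0 reads in NONO IP and 4 and 4 in Input. Mir1306, which lies inside Dgcr8 in RefSeq, was not analysed here.

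Of 33 listed genes that host microRNAs, 24 were listed in the data and 8 were tested, with 1 higher and 5 lower, against 29.8% and 26.9% of all genes tested. For 3 of the 8 (Myh6, Myh7 and Srebf1) both Input libraries but not both NONO IP libraries reached the level of the count filter. These 3 are among the 5 lower hosts, and their calls support no count of lower genes. Ctdsp2, host of a microRNA of the miR-26 family, was higher, with 85 and 57 reads in NONO IP and 26 and 20 in Input (log2 fold change 1.03, SE 0.26, edgeR adjusted p = 0.00258). Slit3 (−0.81, SE 0.15), Myh7 (−2.82, SE 0.55), Srebf1 (−1.47, SE 0.37) and Tln2 (−1.12, SE 0.37) were lower, at adjusted p-values of 0.000246, 0.000336, 0.00288 and 0.0163. Ctdsp2 was not called on the log2(RPKM + 1) scale (0.34, limma adjusted p = 0.352), nor Srebf1 by the DESeq2 Wald test (adjusted p = 0.0675). The call of Tln2 ended without NONO IP replicate 1 (−0.91, adjusted p = 0.127). The other lower gene, Myh6, also a cardiomyocyte marker, was named after its value was seen.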

How the data were processed

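The deposited values are counts of whole reads per gene and RPKM values (reads scaled to gene length and library total), named so by the authors and found to fit those units. The submitters' processing notes name HISAT2, HOMER and mRatBN7.2, in roles not stated. RNA was poly(A)-selected and made into stranded libraries, per the labels' protocols. For the counting program, its strand setting and its handling of reads with several positions, the sources used here give nothing. RefSeq (GRCr8, used for neighbouring genes only) places other genes within Ago1, Ago2, Ago3, Tnrc6a, Tnrc6b and Dgcr8, whose reads could not be told apart without strand.

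EdgeR 4.0.16 (R 4.3.3) tested NONO IP against Input with TMM scaling and filterByExpr, which kept genes reaching 38.9 CPM in 2 libraries (2920 genes, 91.1% of counts). P-values were adjusted by Benjamini-Hochberg over all genes tested (threshold 0.05). SE is the log2 fold change over the root of F. DESeq2 1.42.0 and limma 3.58.1 served as alternatives; limma on log2(RPKM + 1) or log2(RPKM + 0.1) took genes reaching 1 RPKM in 2 libraries. The length offset was a loess curve (span 0.5) on relative length, which rests on library totals estimated from 461 genes with at least 30 counts in each library. Statistics were tested on simulated data. Replicates differed by a chi-square per degree of freedom of 1.42 (NONO IP) and 1.12 (Input) and were kept apart.

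Named genes are the members, up to 6 pathway genes per direction with the smallest adjusted p, up to 4 microRNA hosts per direction and the 3 genes most like the members; Cnot6 and Igf2bp2 were added after their values were seen. Members and lists were chosen with earlier results of these data known.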

Additional observations from a re-analysis of the deposited data

How the results depend on the processing

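The number of members called higher, 1 by the edgeR test, was 3 with library totals (Ago2, Tnrc6c and Dicer1) and 0 with the DESeq2 Wald test, on both RPKM scales and with the length offset, alone or with the replicate block. It ranged from 0 to 1 when a library was left out. The number called lower, 0, was 1 with the replicate block (Tnrc6a, −0.90, edgeR adjusted p = 0.0437), 2 with the length offset and 2 with the length offset and block, and ranged from 0 to 1 when a library was left out. Pathway genes called higher, 8, numbered 14 with library totals, 5 with the DESeq2 Wald test, 3 with at least 50 counts in 2 libraries and 4 on each RPKM scale. Pathway genes called lower, 6, numbered 2 with library totals, 3 with protein-coding totals, 2 with the DESeq2 Wald test, 2 with at least 50 counts and 12 on log2(RPKM + 1), and from 3 to 8 with a library left out. All genes called higher, 871, numbered 453 with the DESeq2 Wald test, 254 with at least 50 counts (600 genes tested), 393 on log2(RPKM + 1) and 348 on log2(RPKM + 0.1). All genes called lower, 786, numbered 466 with library totals, 423 with the DESeq2 Wald test, 247 with at least 50 counts and 1425 on log2(RPKM + 1). The cause of these moves was not tested, other than the smaller number of genes under the stricter filter.

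Ago2 stayed above 0 in all 16 alternatives (0.10 to 1.20, adjusted p 0.000571 to 0.794) and was called in 9. Signs turned for Ago1 with library totals (0.0533) and without NONO IP replicate 1 (−1.06 to 0.35 over libraries left out), for Ago3 without NONO IP replicate 2 (−5.00 to 0.12), for Tnrc6c on the RPKM scales (−0.18 and −0.28), with the length offset (−0.61) and with length offset and block (−0.60), for Dgcr8 on the RPKM scales (−0.14 and −0.20), and for Adarb1 with library totals (0.11). Library totals put the median gene at 0.45. Deviations of same-numbered libraries from their group means correlated at 0.0508 across genes. Replicates differed by little more than counting error (chi-square per degree of freedom 1.42 in NONO IP and 1.12 in Input). The correlation therefore cannot decide whether the replicate numbers pair the libraries. The replicate block moved no count of calls over all genes by 1.5 times (870 higher, 806 lower). Depth limits 5 of the 10 members to ratios with wide counting intervals.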
